A study of Mus musculus with 27 samples.

Results

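The Kruppel-like factors described here are 10 genes, Klf2, Klf3, Klf4, Klf5, Klf6, Klf7, Klf9, Klf10, Klf13 and Klf15, taken by gene symbol from the 24825 gene rows of an RNA-seq series in C2C12 cells, a mouse myoblast line that forms muscle fibres when it differentiates. All 10 symbols had a row in each of the 27 libraries, and another 7 genes named Klf are described only where they are compared with these 10. The list was made by gene symbol, with earlier results of these data known.

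Kruppel-like factors are transcription factors with C-terminal zinc fingers that bind GC-rich and CACCC sequences in promoters and enhancers. Members with an activating N-terminal region (Klf2, Klf4, Klf5, Klf6 and Klf7 here) are distinguished from Klf3, which recruits the corepressor CtBP, and from Klf9, Klf10 and Klf13, which recruit the corepressor Sin3. Several act in adipocyte formation: Klf4 and Klf5 are early activators of that program, Klf9 and Klf15 act later, and Klf2, Klf3 and Klf7 restrain it. Klf5 has also been described as a partner of the muscle regulators in myoblasts. Klf9 and Klf15 are known glucocorticoid-responsive genes, and Klf4 and Klf10 belong to the genes that respond early to cAMP or growth factor signals.

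The study asked how nuclear factor I-A (NFIA), a regulator of brown adipocyte differentiation, and its C-terminal pro#3 region act on gene expression in myoblasts. C2C12 cells carried a control retrovirus, full-length NFIA, or a mutant that lacks the pro#3 region (Δpro#3), and each was sampled at day 0, at day 7 of differentiation, and at day 7 after 10 µM forskolin for 4 h, with 3 libraries in each of the 9 groups. Per the labels, every day 7 culture, controls included, had received isobutylmethylxanthine, indomethacin, dexamethasone, insulin, T3 and rosiglitazone in serum for 48 h from confluence, then insulin, T3 and rosiglitazone in serum. Forskolin activates adenylyl cyclase and raises cAMP. Nothing in the labels says that the 3 libraries of a group came from separate cultures, so p-values measure the spread between these libraries, which may be technical. The constructs were expressed from a retroviral promoter, so their level was not that of the endogenous gene.

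Depth was 9567769 to 27230965 fragments per library, with a median of 17707223. Nfia, the gene carried by the vectors, stood at 0.0885 to 7.35 FPKM (fragments per kilobase of transcript, scaled to library depth) in the 9 control libraries. At day 0 it was at 225, 249 and 250.2 FPKM in full-length NFIA and 423, 398 and 397 in Δpro#3 cells, and at day 7 at 457, 528 and 459.6 in full-length NFIA and 480.5, 383 and 374 in Δpro#3 cells. With forskolin it was at 497, 524 and 594 FPKM in full-length NFIA and 344, 262 and 277 in Δpro#3 cells. Nfia in Δpro#3 cells lay above that in full-length NFIA cells at day 0 and below it with forskolin, both without overlap, and the groups overlapped at day 7. The part of these levels in the differences between the constructs was not tested. The files do not tell vector from endogenous transcripts, or full-length from mutant. The highest control value, 7.35, was in day 0 control replicate 2. The summed FPKM of 8 muscle markers at day 7 was 9972.9 to 11547.1 in control, 1775.7 to 2400.6 in full-length NFIA and 11360.4 to 11841.0 in Δpro#3 cells. The markers split in Δpro#3 against control cells at day 7, by the calls defined below. Myog (-1.41, log2 fold change), Myod1 (-0.82) and Tnnt3 (-0.82) were lower and Acta1 (0.78) and Des (0.61) higher. Ckm, Myh3 and Mylpf were not called. That of 8 adipocyte markers was 360.1 to 398, 13485.0 to 15002.1 and 632 to 2041.0 in the same order, the highest Δpro#3 value being replicate 1. That of 8 fibroblast and mesenchymal markers was 1862.4 to 2105.3, 1716.9 to 1840.0 and 2724.3 to 3539.4. Of 5 markers of endothelial and blood cells, Ptprc was at 0 in all 3 libraries of 5 groups, and the sum of the 5 never passed 26.51 FPKM. Cd68 of the same list rose from day 0 to day 7 in control, full-length NFIA and Δpro#3 cells, with log2 fold changes of 2.341, 1.715 and 0.939. The marker sums differed between constructs, and fewer cells of a type cannot be told apart from less RNA per cell.

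In the mouse assembly NCBIM37, which is mm9, the build named in the labels, Klf2 is at chr8:74842932-74845555, Klf3 at chr5:65194628-65221368, Klf4 at chr4:55540013-55545347, Klf5 at chr14:99697910-99712624, Klf6 at chr13:5860735-5869639, Klf7 at chr1:64076021-64168856, Klf9 at chr19:23215716-23241401, Klf10 at chr15:38221219-38230464, Klf13 at chr7:71031237-71083801 and Klf15 at chr6:90412570-90425232 (GENCODE M1). Each member lies on a chromosome of its own. Klf9 is the only member that shares its strand with an overlapping gene, the microRNA gene Mir1192. The transcript length used for FPKM was near the summed exon length for most members, but was 1334 nt against 8133 nt for Klf7 and 5378 nt against 2527 nt for Klf15, so the levels of those genes relative to the others depend on the annotation.

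Promoters are shown for 4 members because Klf4 and Klf15 moved in opposite directions with forskolin in full-length NFIA cells, and Klf2 and Klf9 in opposite directions with differentiation in control cells. Each sequence is the 250 bases before the RefSeq transcript start in the build GRCm38.p6, written 5′ to 3′ on the gene's strand, with capitals marking TGACG on either strand, the half-site of the cAMP response element. The windows are chr4:55532476-55532725 on the minus strand for Klf4, and chr6:90462326-90462575, chr8:72318812-72319061 and chr19:23140976-23141225 on the plus strand for Klf15, Klf2 and Klf9.
Klf4: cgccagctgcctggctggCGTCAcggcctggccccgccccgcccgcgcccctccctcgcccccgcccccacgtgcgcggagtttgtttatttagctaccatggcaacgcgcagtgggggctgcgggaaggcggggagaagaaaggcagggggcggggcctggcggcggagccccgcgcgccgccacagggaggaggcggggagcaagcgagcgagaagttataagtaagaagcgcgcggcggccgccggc
Klf15: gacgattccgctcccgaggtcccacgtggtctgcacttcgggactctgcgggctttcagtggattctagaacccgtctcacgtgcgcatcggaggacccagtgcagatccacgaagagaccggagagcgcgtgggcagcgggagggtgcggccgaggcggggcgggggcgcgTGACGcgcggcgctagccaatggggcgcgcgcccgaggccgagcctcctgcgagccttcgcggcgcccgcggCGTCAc
Klf2: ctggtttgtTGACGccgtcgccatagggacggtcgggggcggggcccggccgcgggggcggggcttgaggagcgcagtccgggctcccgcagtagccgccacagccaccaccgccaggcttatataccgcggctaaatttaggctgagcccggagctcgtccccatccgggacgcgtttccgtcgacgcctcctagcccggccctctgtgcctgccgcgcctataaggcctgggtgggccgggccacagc
Klf9: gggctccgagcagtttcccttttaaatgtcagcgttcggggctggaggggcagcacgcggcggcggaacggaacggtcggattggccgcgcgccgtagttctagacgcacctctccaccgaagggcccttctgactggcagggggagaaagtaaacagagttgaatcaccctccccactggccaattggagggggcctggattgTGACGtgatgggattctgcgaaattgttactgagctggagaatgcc

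A promoter was found for 8 of the 10 members, all but Klf5 and Klf10. TGACG occurred in 5 of the 8 windows (Klf2, Klf4, Klf9, Klf13 and Klf15), and in 17.8% of the 32851 promoters of the table over the same length. The full element TGACGTCA, which contains the half-site on both strands, was in none of the 8 and in 1.55% of all. The half-site TTGGC of nuclear factor I was in 4 of the 8 (Klf6, Klf9, Klf13 and Klf15) and in 41.5% of all, and its palindrome, TTGGC and GCCAA with 5 bases between them, was in none of the 8 and in 0.0365% of all. The CACCC box was in 6 of the 8 and in 52% of all, the GC box GGGCGG in 7 of the 8 and in 32.7% of all, and the glucocorticoid element, AGAACA and TGTTC with 3 bases between them, in none of the 8 and in 0.0304% of all. The 8 windows were 59.2% to 78.4% G or C, and the promoters of the table were not matched to them in base composition. Both strands were searched for each motif, and a match is a description of the letters only.

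The 10 members together made 217 ± 7.74 FPKM (SD, n = 3) in control cells at day 0 and between 171 ± 5.64 and 231 ± 11.1 in the other 8 groups. At day 0, Klf6, a broadly expressed activator, and Klf3 were the largest parts in control cells, at 31.4% ± 1.08 and 22.9% ± 0.611 of the summed FPKM (SD, n = 3). At day 7 the largest part in control cells was Klf9, at 28.1% ± 0.832, against 4.69% ± 0.267 at day 0. In full-length NFIA cells with forskolin it was Klf4, at 26.9% ± 1.41. Klf5 made 10.9% ± 0.969 of the total in control cells at day 7 and 0.618% ± 0.0995 in full-length NFIA cells at day 0, its largest and smallest parts.

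**Figure D1:**
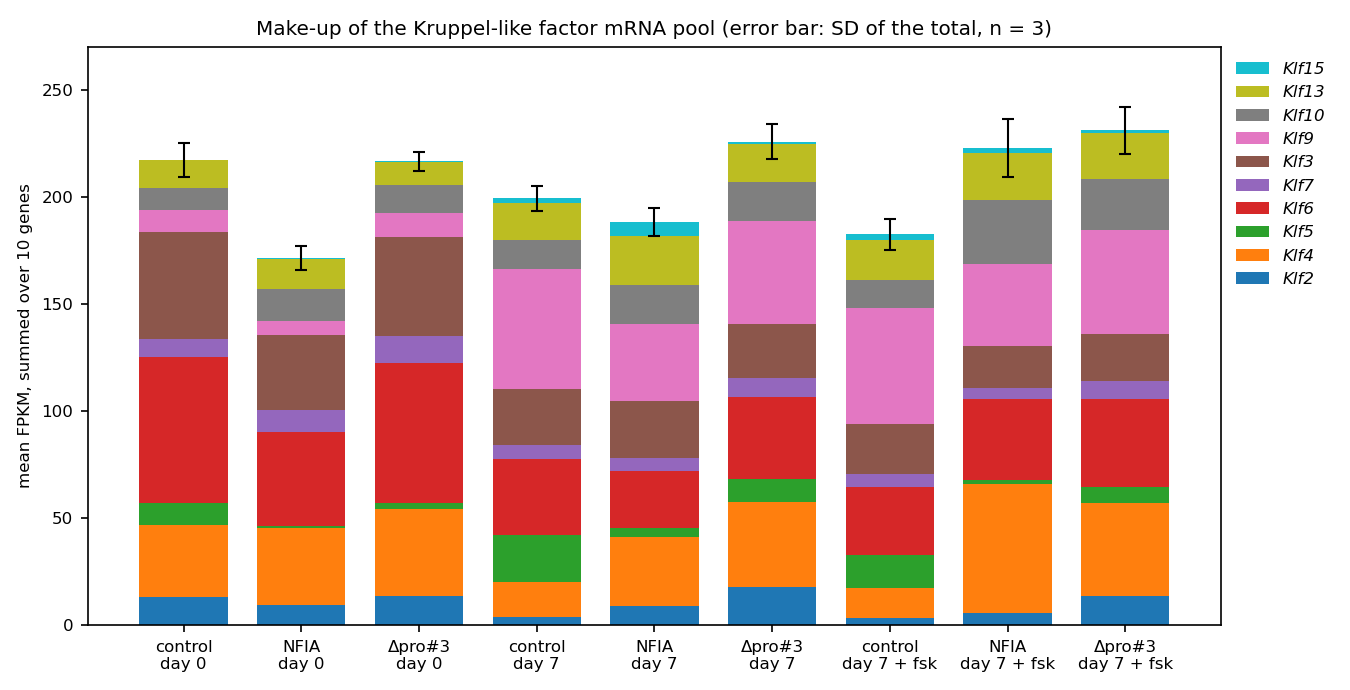
Mean FPKM of the 10 Kruppel-like factors stacked for each of the 9 groups (3 libraries each), with the SD of the total as the error bar. The total lies between 171 and 231 FPKM, while the Klf9 layer is thick at day 7 and thin at day 0, and the Klf5 layer is thickest in control cells at day 7.

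Between the highest and the lowest of the 9 group means, Klf5 ranged most on the scale of log2(FPKM + 1), by 3.46, followed by Klf9 (2.90), Klf15 (2.85), Klf2 (2.10) and Klf4 (2.01), and Klf13 least, by 1.04. In what follows a gene is called when the limma adjusted p is under 0.05 and FPKM + 1 differs by more than 1.5-fold, and log2 fold changes are on the scale of log2(FPKM + 1), which understates the change of low genes such as Klf15. Within a time point the comparisons share libraries, as both constructs are set against the same controls.

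**Figure D2:**
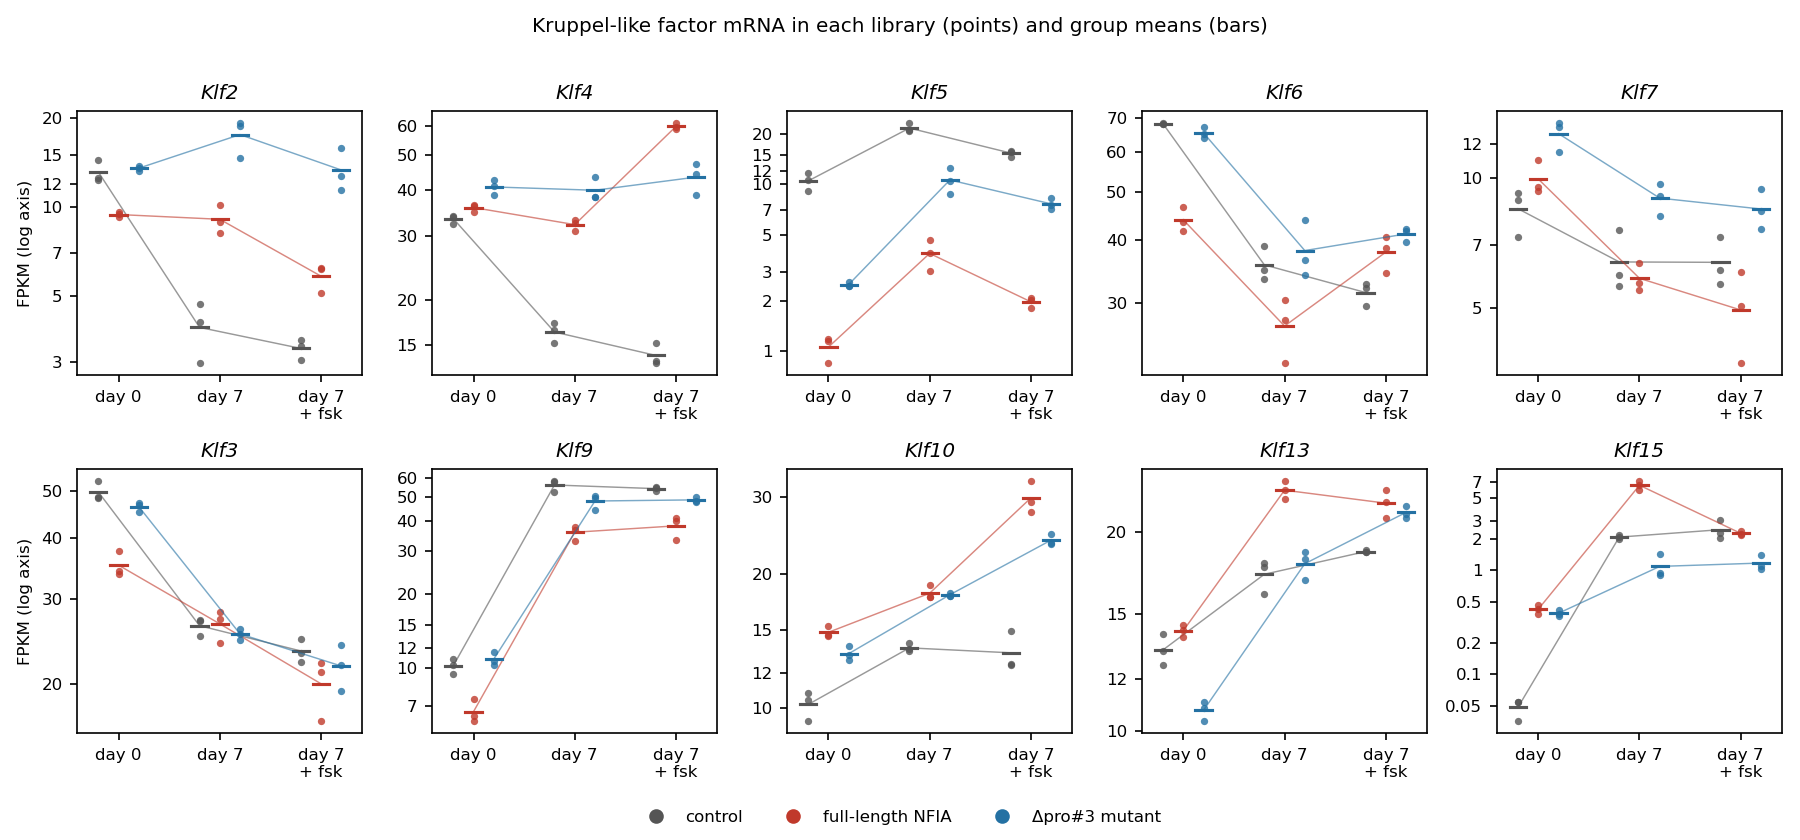
FPKM of each Kruppel-like factor (log axis) at day 0, day 7 and day 7 with forskolin (fsk); points are the 3 libraries of a group, short bars the group means, grey control, red full-length NFIA and blue Δpro#3 mutant. The red Klf5 points lie below all grey and blue points at each time, and the grey Klf2 and Klf4 points drop from day 0 to day 7.

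Before differentiation Klf5 stood out among the members. Klf5, an activator used early in adipogenesis and expressed in myoblasts, was at 9.07, 10.6 and 11.7 FPKM in the control libraries, at 1.15, 0.850 and 1.18 in full-length NFIA cells and at 2.46, 2.48 and 2.59 in Δpro#3 cells. The 3 groups did not overlap, and the mutant lay between the control and full-length levels. Klf5 fell 9.87-fold with full-length NFIA, a log2 fold change of -2.47 ± 0.09 (SE, adjusted p = 7.71e-10), and 4.17-fold with the mutant, -1.70 ± 0.09 (SE, adjusted p = 3.64e-08). The mutant exceeded full-length NFIA by 0.77 ± 0.09 (SE, adjusted p = 1.79e-05). The control library with the raised Nfia level, replicate 2, was the middle of the 3 control values of Klf5. At day 0 the summed level of the 8 muscle markers moved with Klf5. It was 1380.1 to 1465.2 FPKM in control, 134 to 143 in full-length NFIA and 398 to 408 in Δpro#3 cells, and its part in the result was not tested. At day 7 the sum in Δpro#3 cells, 11360.4 to 11841.0 FPKM, overlapped that of control, 9972.9 to 11547.1, while mean Klf5 was 10.6 against 21.7 FPKM. With forskolin these sums also overlapped, at 10186.2 to 11164.0 and 9778.7 to 11530.8 FPKM, while mean Klf5 was 7.625 against 15.4. The study reported less KLF5 binding at a Myod1 enhancer with both constructs, and less KLF5 protein with full-length NFIA. Myod1, a myogenic regulator, was at 40.9, 45.8 and 44.6 FPKM in control and 17.5, 18.3 and 17.6 in full-length NFIA cells at day 0. In Δpro#3 cells it was at 42.9, 40 and 42.2, where it overlapped control while Klf5 did not. At day 7 Myod1 was called lower in Δpro#3 than in control cells, at -0.82 ± 0.17 (SE, adjusted p = 0.00332), with means of 41.4 and 73.2 FPKM. With forskolin its means were 54.98 and 78.15 FPKM, and the difference, -0.51 ± 0.12 (SE, adjusted p = 0.00499), missed the fold threshold. Myod1 was named after its values were seen.

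Klf6 was at 68.0, 68.4 and 68.2 FPKM in control, 41.8, 43.5 and 46.5 in full-length NFIA and 63.8, 67.3 and 65.1 in Δpro#3 cells. It fell with full-length NFIA, a log2 fold change of -0.63 ± 0.04 (SE, adjusted p = 7.37e-08), and the mutant differed from control by -0.06 ± 0.04 (SE, adjusted p = 0.195). With Klf5 it made 2 of the 9 members tested that were called for full-length NFIA against control, where 24.5% of 12105 genes were called. For the mutant against control Klf5 was the 1 member called, with 14.0% of all genes called. Against full-length NFIA the mutant had 2 called members, Klf5 and Klf9 (15.6% of all genes). Klf9, a Sin3-recruiting repressor, stood at 9.42, 10.9 and 10.3 FPKM in control, 6.35, 6.06 and 7.44 in full-length NFIA and 10.6, 11.6 and 10.3 in Δpro#3 cells, and the mutant exceeded full-length NFIA by 0.64 ± 0.07 (SE, adjusted p = 2.03e-05). Full-length NFIA against control, at -0.56 for Klf9, missed the fold threshold, and passed it without control replicate 1 (-0.61) or full-length NFIA replicate 3 (-0.63).

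The other activators had smaller differences at day 0. Klf2 was at 13.2 ± 1.15 FPKM in control, 9.45 ± 0.196 in full-length NFIA and 13.6 ± 0.281 in Δpro#3 cells (SD, n = 3 each), and Klf4 at 33.4, 35.8 and 40.8 in the same order. Klf7 was at 8.48, 9.94 and 12.7 FPKM, and its difference of mutant from control, 0.53, passed the fold threshold without control replicate 2 (0.59) or Δpro#3 replicate 3 (0.59). The difference of mutant from full-length NFIA in Klf6, 0.57, did so without full-length NFIA replicate 3 (0.61). Over the 9 tested members the median log2 fold change was -0.44 for full-length NFIA against control and 0.04 for the mutant, beside 0.0083 and 0.0095 over all genes tested.

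Klf15, which activates amino acid and glucose metabolism genes, was nearly at 0 in control myoblasts. It had 7, 8 and 5 fragments in the control libraries, 64, 58 and 23 in full-length NFIA and 43, 55 and 53 in Δpro#3 cells, or 0.0484 ± 0.0110, 0.423 ± 0.0435 and 0.387 ± 0.0262 FPKM (SD, n = 3). Both constructs lay above all control libraries and overlapped each other. Its mean over the day 0 libraries was under the 0.5 FPKM needed for the test, so these values have no p.

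In control cells, differentiation lowered 4 members and raised 3. The 7 called of 10 tested stand beside 39.6% of 12408 genes called in that comparison. On the scale of log2(FPKM + 1) Klf9 rose most, from 9.42, 10.9 and 10.3 to 52.4, 58.0 and 57.4 FPKM, a 5.49-fold rise of the mean and a log2 fold change of 2.35 ± 0.08 (SE, adjusted p = 4.75e-14). Klf5 rose from the day 0 values above to 23.2, 20.8 and 21.0 FPKM, 0.99 ± 0.12 (SE, adjusted p = 1.44e-06). Klf15 rose to 2.10, 1.99 and 2.17 FPKM, 1.56 ± 0.08 (SE, adjusted p = 2.70e-11), and by the ratio of mean FPKM, 43.1-fold from a level near 0, its rise was the largest. In each of these the day 0 and day 7 libraries did not overlap.

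The activators Klf2, Klf4 and Klf6 and the repressor Klf3 fell in control cells over the same time. Klf2, known in endothelium and in preadipocytes, went from 12.6, 12.4 and 14.5 FPKM to 2.96, 4.09 and 4.70, -1.54 ± 0.12 (SE, adjusted p = 2.11e-09). Klf4 went from 32.4, 33.9 and 34.0 to 15.2, 16.5 and 17.3 FPKM, -0.99 ± 0.05 (SE, adjusted p = 3.99e-11). Klf6 and Klf3 changed by -0.92 ± 0.09 (SE, adjusted p = 9.32e-08) and -0.89 ± 0.06 (SE, adjusted p = 1.75e-10). Klf7, Klf10 and Klf13 were not called, at -0.36, 0.39 and 0.36 on the log2 scale. The median over the 10 members was -0.00393, beside -0.06 over all genes.

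In full-length NFIA cells 6 members were called between day 0 and day 7 (38.9% of all genes), and in Δpro#3 cells 5 (37.1%). Klf9 rose by 2.28 ± 0.08 (SE, adjusted p = 3.63e-14) in full-length NFIA and by 2.05 ± 0.08 (SE, adjusted p = 2.49e-13) in Δpro#3 cells, and Klf5 by 1.23 ± 0.12 (SE, adjusted p = 9.79e-08) and 1.71 ± 0.12 (SE, adjusted p = 1.5e-09). Klf13, a Sin3-recruiting repressor, rose in both, from 14.2, 13.9 and 14.4 to 23.1, 23.8 and 22.4 FPKM in full-length NFIA cells (0.67 on the log2 scale) and from 10.8, 10.4 and 11.1 to 18.6, 18.2 and 16.9 in Δpro#3 cells (0.68). Klf6 fell in both, with log2 fold changes of -0.69 and -0.77. Klf15 rose in full-length NFIA cells by 2.41 ± 0.08 (SE, adjusted p = 6.24e-14). Klf7 fell there, at -0.67 ± 0.10 (SE, adjusted p = 1.29e-05), and Klf3 fell in Δpro#3 cells, at -0.85 ± 0.06 (SE, adjusted p = 3.67e-10).

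Scaling the libraries by the median ratio of their genes moved the median of all genes by 0.126 in full-length NFIA cells and 0.111 in Δpro#3 cells, and under it the falls of Klf6 and Klf7 in full-length NFIA cells, at -0.55 and -0.54, were under the fold threshold. The fall of Klf6 there was also under it without day 7 full-length NFIA replicate 1, the shallowest library, at -0.58. Klf15 in Δpro#3 cells rose without overlap from a mean of 0.387 to 1.09 FPKM, low levels at which log2(FPKM + 1) understates the change. On that scale its rise, at 0.58, was at the threshold, and passed it without day 0 replicate 2 (0.60) or day 7 replicate 2 (0.63) or 3 (0.65).

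The course of Klf2 and Klf4 over differentiation differed between control cells and both constructs. Klf2 at day 7 was at 8.17, 8.93 and 10.2 FPKM in full-length NFIA and 19.3, 18.9 and 14.7 in Δpro#3 cells, against the control values of 2.96 to 4.70. Its change from day 0 to day 7 was more positive than in control by 1.49 ± 0.16 (SE, adjusted p = 4.71e-07) with full-length NFIA and by 1.89 ± 0.16 (SE, adjusted p = 1.18e-07) with the mutant. Klf4 at day 7 was at 30.9, 32.5 and 33.1 and 38.2, 43.5 and 38.3 FPKM, against 15.2 to 17.3 in control. The differences of its change were 0.84 ± 0.08 (SE, adjusted p = 5.45e-08) and 0.96 ± 0.08 (SE, adjusted p = 4.60e-08). The mutant and full-length NFIA differed from each other in these changes by 0.40 ± 0.16 (SE, adjusted p = 0.0429) for Klf2 and 0.12 ± 0.08 (SE, adjusted p = 0.186) for Klf4, neither of which was called.

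In all, 3 members differed in this course between full-length NFIA and control (37.5% of all genes), 4 between the mutant and control (14.8%) and 1 between the mutant and full-length NFIA (29.4%). Klf5 rose more in Δpro#3 than in control cells, by 0.72 ± 0.18 (SE, adjusted p = 0.00316). For full-length NFIA against control the Klf5 difference was 0.24 ± 0.18 (SE, adjusted p = 0.236) and not called, but it was called at 0.71 with a pseudocount of 0.1 and at 0.75 by limma-voom. Between the mutant and full-length NFIA the Klf5 difference, 0.48, passed the fold threshold without day 7 full-length NFIA replicate 1 (0.60) or day 7 Δpro#3 replicate 1 (0.61). Klf15 rose less in Δpro#3 cells than in control, a difference of -0.97 ± 0.12 (SE, adjusted p = 5.01e-06), and than in full-length NFIA cells, a difference of -1.83 ± 0.12 (SE, adjusted p = 1.01e-09). For full-length NFIA against control the difference in Klf15 was 0.85 ± 0.12 (SE, adjusted p = 6.53e-06), but its sign depended on the pseudocount, since the control level at day 0 was near 0: it was -0.21 with a pseudocount of 0.1 and -1.41 by limma-voom on the fragments.

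At day 7, 5 of the 10 members were called between full-length NFIA and control cells, where 35.5% of 12324 genes were called. Klf2, Klf4 and Klf15 were higher and Klf5 and Klf9 lower. Klf15 stood at 5.93, 7.21 and 6.59 FPKM, above every library of the other groups, and exceeded control by 1.29 ± 0.11 (SE, adjusted p = 1.57e-06). Klf5 was at 4.67, 3.04 and 3.86 FPKM, 5.62-fold under control, -2.24 ± 0.14 (SE, adjusted p = 1.95e-07). Klf2 and Klf4 exceeded control by 1.05 ± 0.14 (SE, adjusted p = 7.58e-05) and 0.94 ± 0.07 (SE, adjusted p = 5.68e-07). Klf9 was at 37.7, 36.7 and 33.2 FPKM and lower than control, at -0.63 ± 0.07 (SE, adjusted p = 1.68e-05), a call that was lost under median-ratio scaling (-0.53) and without full-length NFIA replicate 3 (-0.58).

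The Δpro#3 mutant at day 7 had 3 called members against control (12.7% of all genes), Klf2 and Klf4 higher and Klf5 lower. Klf2 exceeded control 4.50-fold, 1.93 ± 0.14 (SE, adjusted p = 5.56e-06), and Klf4 2.45-fold, 1.24 ± 0.07 (SE, adjusted p = 8.29e-07). Klf5 was at 8.71, 12.6 and 10.5 FPKM, -0.98 ± 0.14 (SE, adjusted p = 2.96e-04). Klf15 was at 1.43, 0.941 and 0.903 FPKM, under all control libraries (1.99 to 2.17), low levels at which log2(FPKM + 1) understates the change. On that scale it differed from control by -0.57 ± 0.11 (SE, adjusted p = 0.00152), just under the fold threshold, which it passed without control replicate 2 (-0.59) or Δpro#3 replicate 1 (-0.68). That replicate 1, the library with the highest adipocyte marker sum of its group, also had the highest Klf15 of its group and the lowest Klf5. The part of this library's make-up in the 2 levels was not tested.

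Set against full-length NFIA at day 7, the mutant had 3 called members (26.1% of all genes). Klf5 was higher by 1.26 ± 0.14 (SE, adjusted p = 2.18e-05), Klf2 higher by 0.88 ± 0.14 (SE, adjusted p = 3.69e-04), and Klf15 was lower, at -1.86 ± 0.11 (SE, adjusted p = 1.42e-07). Klf4 was not called (0.30), nor was Klf7 (0.54), which passed the fold threshold without replicate 1 of full-length NFIA (0.59) or of Δpro#3 (0.60). The Klf15 groups lay at 5.93 FPKM and above in full-length NFIA and at 1.43 and below in Δpro#3 cells. The adipocyte marker sum was 13485.0 to 15002.1 and 632 to 2041.0 FPKM in those groups. It was higher where Klf15 was higher here, and its part in the result was not tested. The sum and Klf15 did not move together between all groups. Control cells at day 7 had a lower sum than Δpro#3 cells, 360.1 to 398 FPKM, and a higher mean Klf15, 2.09 against 1.09 FPKM. With forskolin the sum in full-length NFIA cells was 12981.4 to 13704.6 FPKM, while mean Klf15 was 2.27.

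**Figure D3:**
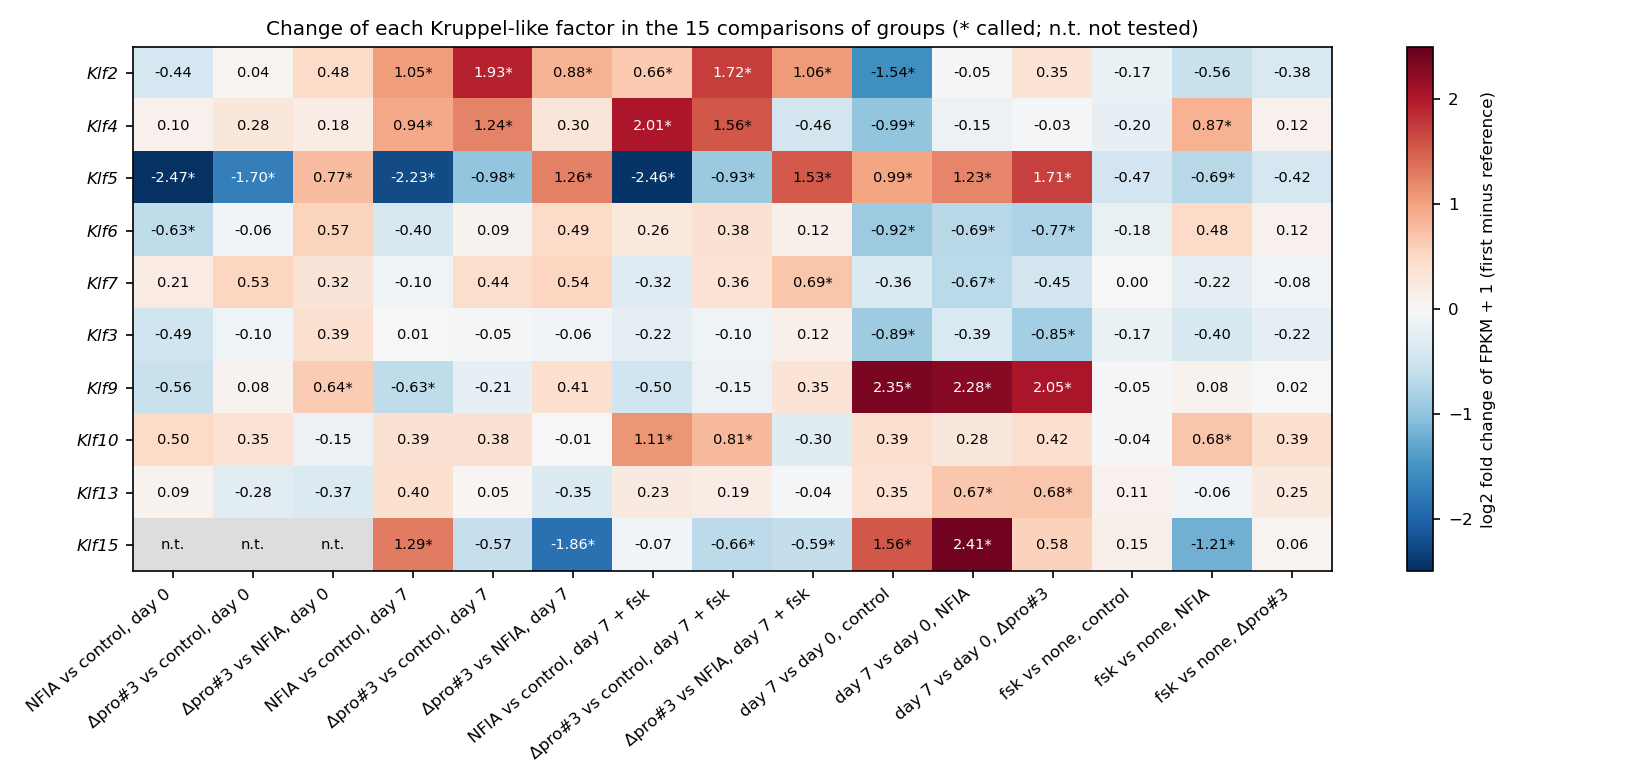
Log2 fold change of FPKM + 1 for the 10 genes (rows) in the 15 comparisons of 2 groups (columns), first group minus reference, with an asterisk where adjusted p is under 0.05 and the change over 1.5-fold; n.t. marks Klf15 at day 0, below the level needed for the test. Klf5 carries an asterisk in all 9 comparisons between constructs, and no gene does for forskolin in control or Δpro#3 cells.

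Forskolin for 4 h called 4 members in full-length NFIA cells (13.5% of 12245 genes) and no member in control (4.14%) or Δpro#3 cells (7.43%). By limma, 2 members in control and 5 in Δpro#3 cells had an unadjusted p under 0.05, beside 32.0% and 45.3% of all genes, and limma-voom on the fragments also called 0 in each. In each, 1 or more of these members also had an adjusted p under 0.05 but missed the fold threshold. Klf4 rose in full-length NFIA cells from 30.9, 32.5 and 33.1 to 58.8, 61.1 and 59.6 FPKM, 0.87 ± 0.07 (SE, adjusted p = 5.46e-08). In control cells it was at 13.4, 15.2 and 13.6 and in Δpro#3 cells at 38.8, 44.3 and 47.3 FPKM with forskolin. The Klf4 response in full-length NFIA cells exceeded that of control cells by 1.08 ± 0.10 (SE, adjusted p = 1.39e-06), and the mutant's response minus that of full-length NFIA was -0.76 ± 0.10 (SE, adjusted p = 7.41e-05).

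Klf10, known as an early gene of TGF-β signalling, rose in full-length NFIA cells from 17.8, 18.9 and 17.8 to 27.7, 29.1 and 32.5 FPKM, 0.68 ± 0.07 (SE, adjusted p = 2.63e-07). In Δpro#3 cells it was at 18.2, 17.9 and 17.9 FPKM without and 23.6, 24.7 and 23.5 with forskolin, groups that did not overlap and differed by 0.39 ± 0.07 (SE, adjusted p = 2.09e-04), under the fold threshold. In control cells it was at 13.4, 13.6 and 14.0 and 12.4, 14.9 and 12.5 FPKM, which overlapped. The response of full-length NFIA cells exceeded that of control cells by 0.72 ± 0.09 (SE, adjusted p = 2.27e-05), and the mutant's response exceeded that of control by 0.43 ± 0.09 (SE, adjusted p = 0.0113), which was not called.

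Klf15 went the other way. In full-length NFIA cells forskolin lowered it from 5.93, 7.21 and 6.59 to 2.37, 2.24 and 2.20 FPKM, 2.90-fold and -1.21 ± 0.11 (SE, adjusted p = 1.76e-07). In control and Δpro#3 cells the libraries with and without forskolin overlapped, with log2 differences of 0.16 ± 0.11 and 0.06 ± 0.11 (SE). The responses differed by -1.36 ± 0.16 (SE, adjusted p = 8.37e-06) between full-length NFIA and control cells and by 1.27 ± 0.16 (SE, adjusted p = 3.12e-05) between the mutant and full-length NFIA. Klf5 also fell in full-length NFIA cells, to 2.09, 1.82 and 2.02 FPKM, -0.69 ± 0.12 (SE, adjusted p = 9.57e-05), a call lost without day 7 replicate 1 (-0.57). Klf5 differed with forskolin by -0.47 and -0.42 in control and Δpro#3 cells, and the difference between the full-length NFIA and control responses, -0.22 ± 0.16 (SE), was not called. In full-length NFIA cells with forskolin the muscle and adipocyte marker sums, 1495.5 to 1825.6 and 12981.4 to 13704.6 FPKM, overlapped those without. The fibroblast and mesenchymal sum was 1453.0 to 1621.7 with and 1716.9 to 1840.0 without forskolin. The part of these markers in the forskolin changes was not tested.

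**Figure D4:**
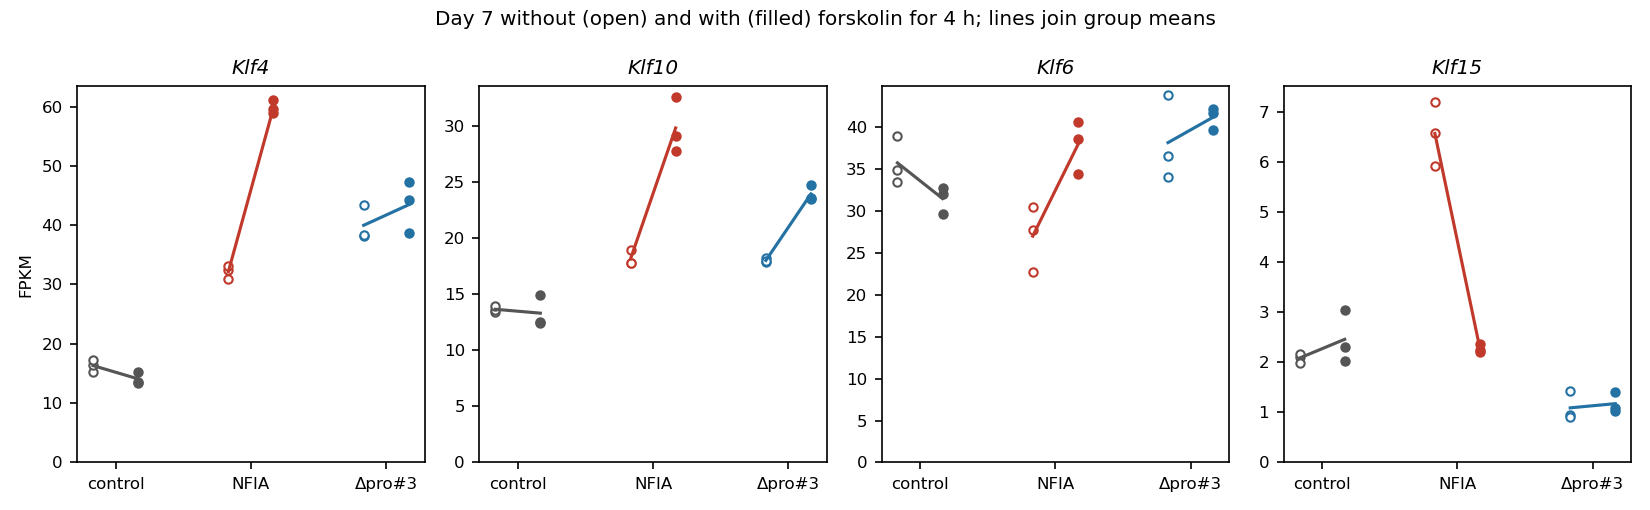
FPKM of Klf4, Klf10, Klf6 and Klf15 in the 3 libraries of each day 7 group, open without and filled with forskolin for 4 h, with lines between group means. In full-length NFIA cells (red) Klf4 and Klf10 rise and Klf15 falls without overlap, while no gene was called in control cells.

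Across the comparisons of forskolin responses, 4 members were called between full-length NFIA and control (10.0% of all genes), 0 between the mutant and control (2.33%) and 2 between the mutant and full-length NFIA (6.53%). For the mutant against control, limma gave 2 members with an unadjusted p under 0.05, beside 19.0% of all genes, and limma-voom called 0. Klf6 was among the 4, at 0.66 ± 0.14 (SE, adjusted p = 0.00243): with forskolin it was at 34.4, 38.6 and 40.6 FPKM in full-length NFIA cells against 22.8, 30.4 and 27.8 without, and at 29.6, 32.7 and 32.1 against 33.5, 38.9 and 34.9 in control. Without day 7 full-length NFIA replicate 1 this difference was 0.54 and not called. Klf2, at 6.19, 6.23 and 5.10 FPKM with forskolin in full-length NFIA cells, changed by -0.56 ± 0.14 (SE, adjusted p = 0.00252) there, under the fold threshold, which it passed without day 7 replicate 1 (-0.63) or forskolin replicate 1 (-0.60) or 2 (-0.60).

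With forskolin present, the constructs were also compared with each other. Full-length NFIA against control had 4 called members (34.5% of 12121 genes), Klf4 higher by 2.01 ± 0.08 (SE, adjusted p = 1.78e-09), Klf10 by 1.11 ± 0.08 (SE, adjusted p = 3.00e-07) and Klf2 by 0.66 ± 0.11 (SE, adjusted p = 3.18e-04), and Klf5 lower, at -2.46 ± 0.07 (SE, adjusted p = 2.80e-10). Median-ratio scaling moved the median of all genes by 0.162 here. Klf15, higher in full-length NFIA than in control cells at day 7, was at 2.37, 2.24 and 2.20 FPKM in full-length NFIA and 2.03, 3.04 and 2.31 in control cells with forskolin, which overlapped. The mutant against control had 5 (12.8% of all genes): Klf2, Klf4 and Klf10 higher by 1.72, 1.56 and 0.81 and Klf5 and Klf15 lower, at -0.93 and -0.66 on the log2 scale. The Klf15 call was lost without control replicate 2 (-0.55).

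The mutant against full-length NFIA had 4 called members with forskolin (27.2% of all genes). Klf5 was higher by 1.53 ± 0.07 (SE, adjusted p = 1.39e-08) and Klf2 by 1.06 ± 0.11 (SE, adjusted p = 1.07e-05). Klf7, higher by 0.69 ± 0.14 (SE, adjusted p = 0.00128), lost its call under median-ratio scaling (0.57), which moved the median of all genes by -0.12 here, and without full-length NFIA replicate 1 (0.53). Klf15, lower at -0.59 ± 0.11 (SE, adjusted p = 7.35e-04), lost its call without full-length NFIA replicate 1 (-0.57) or Δpro#3 replicate 2 (-0.57) or 3 (-0.54). Klf4 was not called at -0.46, but was under median-ratio scaling, at -0.59.

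Ordered by group mean, Klf5 ran from control at day 7 (21.7 FPKM) and control with forskolin (15.4) through Δpro#3 at day 7 (10.6), control at day 0 (10.5), Δpro#3 with forskolin (7.62), full-length NFIA at day 7 (3.85), Δpro#3 at day 0 (2.51) and full-length NFIA with forskolin (1.98) to full-length NFIA at day 0 (1.06). Only Δpro#3 at day 7 and control at day 0 overlapped among these neighbours. Klf4 ran from full-length NFIA with forskolin (59.8 FPKM) to control with forskolin (14.1), and its 3 Δpro#3 groups, at 43.5, 40.8 and 40, overlapped as neighbours next to the highest group. Klf9 held all 6 day 7 groups, at 35.8 FPKM and above, over the 3 day 0 groups, at 10.8 and below. Klf3 overlapped between all neighbours among its 6 day 7 groups, from 26.6 down to 20 FPKM.

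Among 6423 genes of at least 1 FPKM that ranged over at least 1 log2 unit between groups, those most like Klf5 over the 9 group means were Neurl1a (r = 0.988), Mef2a (r = 0.988) and Baiap2l1 (r = 0.986), with Mef2a encoding a MADS-box factor of muscle genes. Mef2a was at 50.5, 20.4 and 24.6 FPKM at day 0 in control, full-length NFIA and Δpro#3 cells. Most like Klf4 were Mapkbp1 (r = 0.962), Diaph2 (r = 0.945) and Efhd1 (r = 0.922). Those of Klf9 were Bag1 (r = 0.996), Pam16 (r = 0.992) and Ndufb5 (r = 0.992), and those of Klf15 were Dhrs7b (r = 0.975), Hint3 (r = 0.969) and Slc22a23 (r = 0.969). Between members, the highest r was 0.81, for Klf3 and Klf6, and the lowest -0.90, for Klf6 with Klf15 and for Klf3 with Klf13. These correlations are over 9 groups that share their constructs and time points, and describe these libraries only.

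Of the 7 other genes named Klf, Klf14 was listed at 0 in all 27 libraries, and Klf1, Klf8 and Klf17 stayed under 0.4 FPKM. Klf11, a Sin3-recruiting repressor close to Klf10, was at 8.51 ± 0.228 FPKM in control, 3.45 ± 0.290 in full-length NFIA and 4.92 ± 0.199 in Δpro#3 cells at day 0 (SD, n = 3), and was called lower with both, at -1.10 ± 0.05 and -0.68 ± 0.05 (log2, SE). Klf5 was lower in the same comparisons, and Klf10 stood at 10.2, 14.8 and 13.2 FPKM. Klf12 was called lower with full-length NFIA at day 0, at -0.64 ± 0.07, and not with the mutant, at -0.31 ± 0.07 (log2, SE). Klf11 and Klf16 fell in control cells between day 0 and day 7, at -0.77 ± 0.09 and -0.75 ± 0.09 (log2, SE). Of the related Sp factors, which bind the same GC boxes, 3 of 5 tested fell in control cells over that time, Sp6 most, at -1.23 ± 0.07 (log2, SE), where 39.6% of all genes were called in either direction. The 12 corepressor and coactivator genes used by the family, such as Ctbp1, Sin3a and Ep300, had a median log2 fold change of -0.13 with full-length NFIA and -0.08 with the mutant against control at day 0.

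Genes of the pathways around the members were read from lists of known genes. Of 12 glucocorticoid-responsive genes, 8 rose and 1 fell in control cells between day 0 and day 7, 8 rose and 3 fell in full-length NFIA cells, and 8 rose and 1 fell in Δpro#3 cells, with medians of 1.10, 1.96 and 1.01 on the log2 scale. Over all genes tested 39.6%, 38.9% and 37.1% were called in either direction, with medians of -0.06, -0.11 and -0.11. In control cells Tsc22d3 rose by 3.80 ± 0.08, Zbtb16 by 2.87 ± 0.10 and Fkbp5 by 2.70 ± 0.09 (SE), beside the rise of Klf9 by 2.35. Of 7 tested genes of amino acid and glucose metabolism known as Klf15 targets, 6 were higher and 1 lower in full-length NFIA than in control cells at day 7 (35.5% of all genes called), with a median of 1.5 against -0.08 for all genes. The higher ones included Pck1 (5.93 ± 0.21) and Bcat2 (1.88 ± 0.08), and the lower one was Slc2a4 (-1.71 ± 0.10, SE), the insulin-responsive glucose transporter of muscle and fat. In the mutant against control 1 of the 7 was called, again Slc2a4, which was lower (-0.67 ± 0.10), a share near the 12.7% called over all genes. With forskolin, where the Klf15 libraries of full-length NFIA and control cells overlapped, the list again had 6 higher and 1 lower in full-length NFIA cells (34.5% of all genes called), with a median of 1.05 against -0.17. At day 0, where Klf15 was above control, 4 of the list were tested (24.5% of all genes called), and Bckdhb was higher (0.63 ± 0.08) and Gpt2 (-1.70 ± 0.03) and Bckdha (-0.79 ± 0.04, SE) lower. All 8 adipocyte markers were higher in full-length NFIA than in control cells at day 7 and with forskolin, with medians of 4.57 and 4.47 on the log2 scale, and their part in the change of the list was not tested.

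Of 14 tested cAMP-responsive genes, 7 rose with forskolin in control, 14 in full-length NFIA and 10 in Δpro#3 cells. Over all genes tested 4.14%, 13.5% and 7.43% were called in the same order, in either direction. The medians of the list were 0.59, 1.53 and 0.86 beside -0.05, -0.15 and -0.06 for all genes. Nr4a3 rose by 0.95 ± 0.10, 4.51 ± 0.10 and 0.98 ± 0.10 and Pde4b, a cAMP phosphodiesterase, by 1.97 ± 0.07, 2.20 ± 0.07 and 1.86 ± 0.07 in the same order (SE). In full-length NFIA cells median-ratio scaling moved the median of all genes by 0.110 in the forskolin comparison. Of the early adipogenic factors, 12 of 14 were tested at day 0, and 7 were higher with full-length NFIA than in control, while with the mutant 5 were higher and 1 lower, where 24.5% and 14.0% of all genes were called. Their medians were 0.63 and 0.45 on the log2 scale, beside 0.0083 and 0.0095 over all genes. Klf5, itself known as such a factor and not in this list, was lower with both.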

How the data were processed

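PolyA RNA of the 27 libraries was prepared with a stranded mRNA kit. Per the labels and the study's methods, the authors aligned reads to mm9 with STAR 2.5.3a, kept uniquely mapped reads, counted those matching a gene's strand and deposited FPKM for 24825 gene rows; the annotation is not given in the sources used here. The deposited FPKM were whole multiples of 1 fragment within 0.1 for 100.0% of values, so fragments were worked back for depth and one alternative. FPKM were log2-transformed after adding 1 and fitted with limma 3.58.1 (R 4.3.3, trended moderation), with 9 libraries per time point and 18 for the changes with differentiation or forskolin. Genes of mean FPKM 0.5 or more in a fit were tested, with Benjamini-Hochberg adjustment over all of them, in 21 comparisons. The fit was tested on simulated data for full-length NFIA against control at day 0 only, and not for the differences between responses. Members and gene lists were chosen with earlier results of these data known. All members were named, up to 4 genes per list and comparison by size of change, and 3 genes each for Klf4, Klf5, Klf9 and Klf15 by correlation of group means. Promoters are from RefSeq, GRCm38.p6. Alternatives were another pseudocount, 2 filters, median-ratio scaling, moderation without trend, a replicate block, limma-voom, and leaving out each library. Figures were drawn with matplotlib 3.10.9.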

Additional observations from a re-analysis of the deposited data

Results flagged for a closer look

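The change of some Kruppel-like factors over differentiation differed between constructs by the test of that difference, given here on the log2(FPKM + 1) scale as the first construct's change minus the second's. Between full-length NFIA and control cells the differences were 1.49 for Klf2, 0.84 for Klf4 and 0.85 for Klf15, the last of which turned negative with a pseudocount of 0.1 (-0.21) and by limma-voom (-1.41). Between Δpro#3 and control cells they were 1.89 for Klf2, 0.96 for Klf4, 0.72 for Klf5 and -0.97 for Klf15. Between Δpro#3 and full-length NFIA cells the difference was -1.83 for Klf15.

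The response to forskolin at day 7 was compared in the same way. Between full-length NFIA and control cells the differences were 1.08 for Klf4, 0.72 for Klf10, 0.66 for Klf6 and -1.36 for Klf15, and that of Klf6 was not called without day 7 full-length NFIA replicate 1, the shallowest library (0.54). Between Δpro#3 and full-length NFIA cells they were -0.76 for Klf4 and 1.27 for Klf15. Klf4 and Klf15 were the members that differed both between full-length NFIA and control and between the mutant and full-length NFIA.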

How the results depend on the processing

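Of 207 member results, all kept direction and call without a filter on low values and with moderation without a trend. With a pseudocount of 0.1 and with limma-voom 200 did so, 6 gained a call and 1 changed sign. That one was Klf15 in the difference of differentiation between full-length NFIA and control cells, 0.85 as reported, -0.21 with a pseudocount of 0.1 and -1.41 with limma-voom, where the control level at day 0 was 5 to 8 fragments. Both settings also called Klf5 in the same difference, at 0.71 and 0.75 beside 0.24. With median-ratio scaling 200 kept direction and call, 3 gained a call and 4 lost it, and one gained was Klf6 with forskolin in full-length NFIA cells (0.62). With genes of mean FPKM 5 or more, which leaves Klf5 at day 0 and Klf15 untested by construction, the called members were 1 for full-length NFIA against control, 0 for Δpro#3 against control and 1 for Δpro#3 against full-length NFIA at day 0, where 21.8%, 11.6% and 13.6% of all genes were called. Between Δpro#3 and full-length NFIA they were 0 for the difference in differentiation (28.2% of all genes) and 1 for that in forskolin response (6.04%). Leaving out 1 library kept 1576 results, with 17 calls gained and 9 lost. It gave 1 to 2 called members for Δpro#3 against control at day 0, 2 to 4 for Δpro#3 against full-length NFIA with forskolin, and 1 to 2 for the difference in differentiation between them.

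Over all genes, the number called with forskolin in control, full-length NFIA and Δpro#3 cells was 507, 1656 and 910 as reported, 768, 2503 and 1396 with a pseudocount of 0.1, and 800, 2556 and 1473 with limma-voom. With mean FPKM 5 or more fewer genes were tested, and the number fell from 1656 to 1099 for forskolin in full-length NFIA cells. In the same setting it went for full-length NFIA against control at day 0 from 2962 to 1920, for Δpro#3 against control from 1694 to 1024 at day 0, 1568 to 1007 at day 7 and 1551 to 985 with forskolin, and for Δpro#3 against full-length NFIA at day 0 from 1891 to 1202. For the difference in differentiation between Δpro#3 and control it went from 1836 to 1191, and for the differences in forskolin response from 1227 to 789 (full-length NFIA and control) and 800 to 512 (Δpro#3 and full-length NFIA). The share of called genes that were higher moved with median-ratio scaling: it was 29.3% as reported and 49.1% with scaling for forskolin in full-length NFIA cells, 43.0% as reported and 53.7% with scaling and 41.5% as reported and 52.7% with scaling for differentiation in full-length NFIA and Δpro#3 cells, 39.1% as reported and 54.5% with scaling for full-length NFIA against control and 58.2% as reported and 46.4% with scaling for Δpro#3 against full-length NFIA with forskolin, and 32.8% as reported and 44.9% with scaling and 65.6% as reported and 49.8% with scaling for the differences in forskolin response of full-length NFIA from control and of Δpro#3 from full-length NFIA. The cause was not tested.

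Libraries with the same replicate number had a mean correlation of their deviations across genes of 0.00825 at day 0, -0.0362 at day 7 and -0.000613 with forskolin, and a library correlated best with its own number in 9, 5 and 6 of 18 cases. Over the groups of the differentiation and of the forskolin comparisons the mean was -0.00178 and 0.0170, the single pairs lay between -0.187 and 0.123 and between -0.187 and 0.352, and a library correlated best with its own number in 35 and 29 of 90 cases. As not every pair passed 0.1, the numbers were not taken to pair the libraries. With the replicate block all 207 member results kept their direction and call, with for example 2 called members for full-length NFIA against control at day 0, 5 at day 7 and 4 with forskolin.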
